A study of Mus musculus with 2 samples.

Results

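The genes described here encode 8 factors known as substrates of dipeptidyl peptidase 4 (Dpp4), the serine protease that sitagliptin inhibits. They are 8 of 31053 genes listed in each library: Cxcl12, Igf1, Ccl11, Cxcl9, Cxcl10, Ccl22, Ccl5 and Hmgb1, each found by its gene symbol. Skin of C57Bl6 mice, male and female and 8 weeks old, was dissociated for single-cell RNA sequencing on the 10x Chromium platform, which reads polyadenylated transcripts. The PBS-labelled library came from skin injected intradermally with PBS alone, and the sitagliptin-labelled library from skin injected with 100 ng sitagliptin in 100 µl PBS. A time of 48 h is named next to skin processing, and the labels do not say from which event it runs or how many mice went into a library. The initial in the names of each library's data files is that of the opposite treatment. Libraries are therefore named by their labels, and an exchange of the labels would turn every direction between them.

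Each treatment had 1 library, so no difference between them was tested, and treatment, mouse and library cannot be told apart. Levels are summed UMIs (unique molecular identifiers, each standing for 1 captured RNA molecule) of a gene per 1000000 UMIs of the same cells (CPM), with exact Poisson intervals. Shares of cells have exact Clopper-Pearson intervals, and all intervals are at 95% and cover counting error only. After filtering, 5932 of 10456 barcodes remained in the PBS-labelled library with a median of 6902.5 UMIs, and 18380 of 22085 remained in the sitagliptin-labelled library with a median of 2197. A total of 75 barcodes occurred in both libraries. Keratinocyte clusters held 65.2% of retained cells in the PBS-labelled library and 96.9% in the sitagliptin-labelled library, which left 2063 and 572 other cells. Collagen and decorin RNA (Col1a2, Col3a1 and Dcn) came to 73492 UMIs in the fibroblast-like cells of the PBS-labelled library and 1204 in those of the sitagliptin-labelled one, with 1302 and 941 UMIs in keratinocyte clusters. The 8 genes, their receptors and Dpp4 were left out of the clustering, and classes are called "X-like" from marker lists because the files hold no annotation.

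DPP4 removes a dipeptide from the amino terminus of peptides whose penultimate residue is proline or alanine. Trimmed chemokines change their receptor use: CXCL12 loses activity at CXCR4, CXCL10 at CXCR3, CCL11 at CCR3 and CCL5 at CCR1. IGF1, the growth factor that acts on follicle epithelium from the dermis, and HMGB1, a chromatin protein that acts as an alarm signal outside the cell, are substrates known from work on the purified proteins. The libraries measure RNA, so they show which cells carry the transcripts and not how much protein is trimmed.

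The 8 genes fell into stromal, interferon-inducible, immune and broadly transcribed groups. Among classes of at least 50 cells in the PBS-labelled library, fibroblast-like cells had the highest level of 4 genes, Cxcl12, Igf1, Ccl11 and Cxcl10. Blood endothelial-like cells were too few to be ranked as a class, and their Cxcl12 level was higher than that of fibroblast-like cells. Cxcl9 led in outer root sheath or bulge-like keratinocytes, Ccl5 in T cell or innate lymphoid-like cells, Ccl22 in the skeletal muscle-like cluster and Hmgb1 in basal keratinocyte-like cells. The leading class stood at least 2-fold above the next for 4 of 8 genes, Ccl11, Cxcl9, Cxcl10 and Ccl5, against 19.5% of the 14630 genes with at least 20 UMIs there. For Cxcl9 and Ccl22 the leading class rested on 3 cells and 1 cell.

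**Figure D1:**
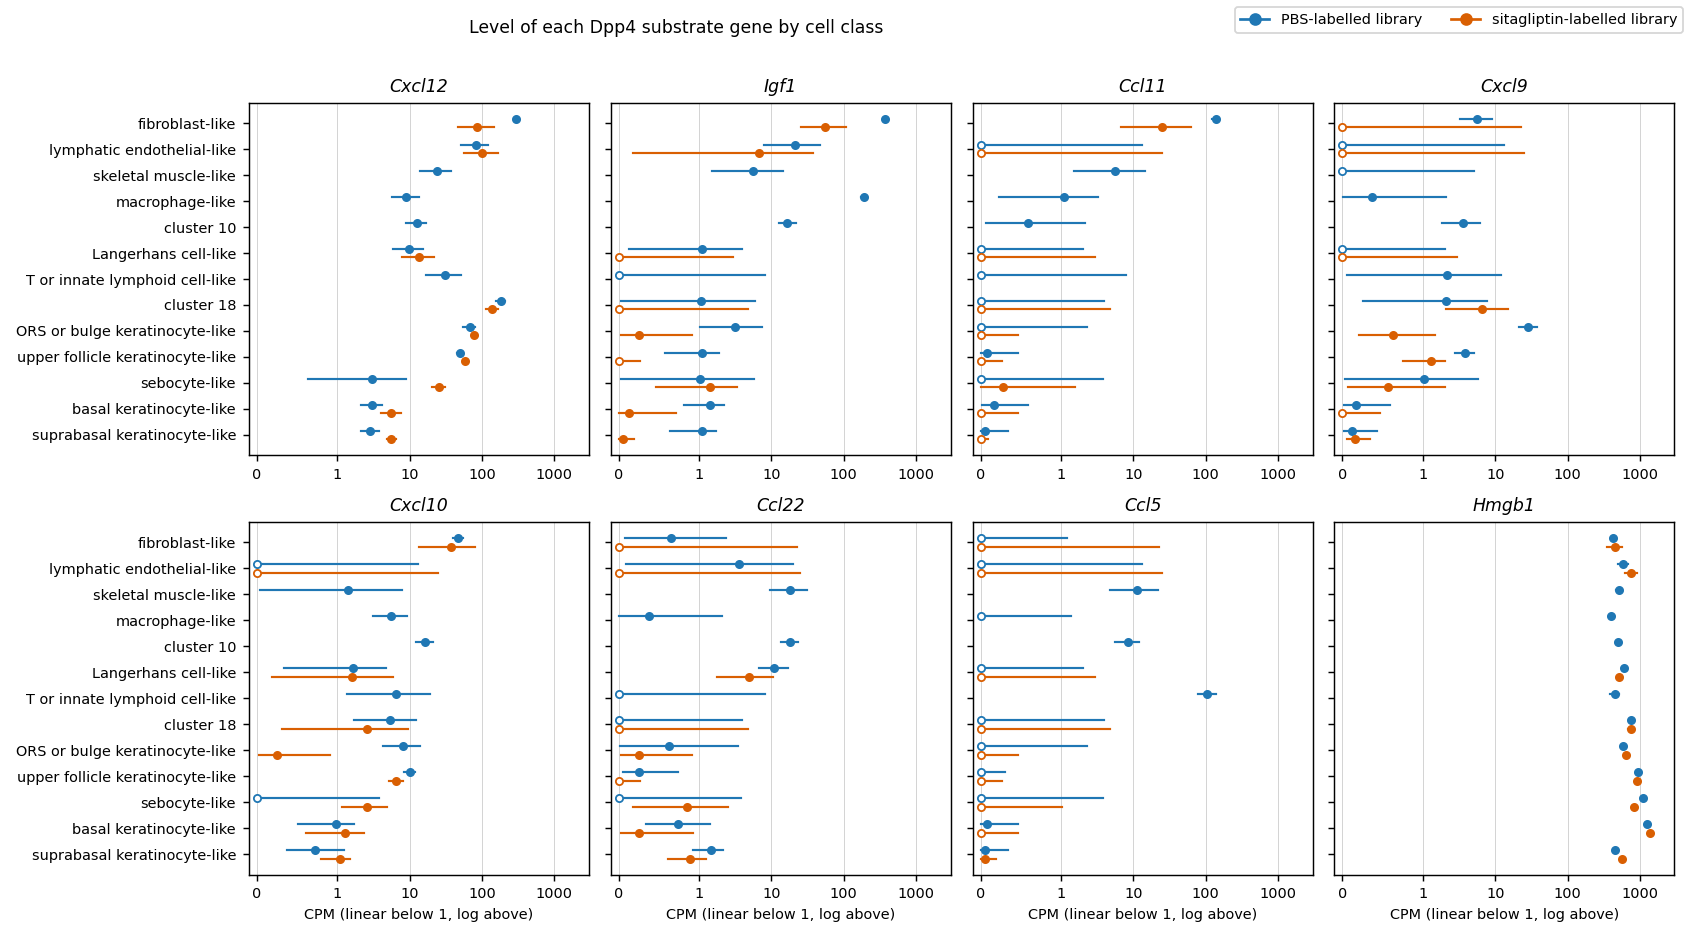
CPM of each Dpp4 substrate gene (horizontal axis, linear below 1 and logarithmic above) by cell class with at least 50 cells (vertical axis), with separate points for each library and bars for exact Poisson intervals; open points have no UMI. Ccl11 sits at 137 CPM in PBS-labelled fibroblast-like cells and under 6 CPM in the other classes of that library, while Hmgb1 lies within a few-fold across them.

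Among the stromal genes, Cxcl12 encodes the ligand of CXCR4 that holds leukocytes and progenitors in place (ENSMUSG00000061353, chromosome 6, 117168535 to 117181367, plus strand; GENCODE vM21 on GRCm38, as for all genes here). Fibroblast-like cells of the PBS-labelled library held 909 of its 2084 UMIs at 298 CPM (interval 279 to 319). A follicle cluster with melanocyte and bulge genes (cluster 18: Dct, Pmel, Wif1) followed at 181 CPM (155 to 210). Epithelium of the follicle carried the gene too, at 67.6 CPM (55.5 to 81.6) in outer root sheath or bulge-like cells and 49.5 CPM (45.6 to 53.7) in upper follicle-like cells. Interfollicular classes lay more than 10-fold below that, at 3.05 CPM in basal and 2.89 CPM in suprabasal keratinocyte-like cells. Of upper follicle-like cells 31.5% had a Cxcl12 UMI, or 5.64% with each cell thinned to 1000 UMIs, and of suprabasal cells, which should lack the gene, 2.52% and 0.252%, at median depths of 7993 and 10778.5 UMIs.

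The same order of follicle over interfollicular epithelium was seen in the sitagliptin-labelled library. Outer root sheath or bulge-like cells had 78.0 CPM (72.0 to 84.4) and upper follicle-like cells 58.0 CPM (54.1 to 62.1), against 5.63 and 5.60 CPM in suprabasal and basal cells. Fibroblast RNA was measured beside these values. For each 100 UMIs of Col1a2, Col3a1 and Dcn, upper follicle-like cells held 148 Cxcl12 UMIs in the PBS-labelled library against 4090 in the sitagliptin-labelled one, and fibroblast-like cells 1.24 and 1.16.

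Igf1, the growth factor gene (ENSMUSG00000020053, chromosome 10, 87858265 to 87937042, plus strand), had 1756 UMIs in the PBS-labelled library against 43 in the sitagliptin-labelled one. In the PBS-labelled library fibroblast-like cells had 366 CPM (345 to 388) and macrophage-like cells 189 CPM (173 to 207), and these classes held 63.5% and 28.9% of its UMIs. A UMI of Igf1 was found in 51.5% of fibroblast-like and 60.0% of macrophage-like cells, or 26.1% and 18.2% after thinning. The share in suprabasal cells, which should lack the gene, was 1.51%, or 0.252% after thinning, at median depths of 5445, 4517 and 10778.5 UMIs for the 3 classes. Keratinocyte clusters held 3.08% of the UMIs, never more than 1 in a cell. Per 100 UMIs of C1qa, C1qb and C1qc, complement genes of macrophages, keratinocyte clusters held 2.69 Igf1 UMIs and macrophage-like cells 1.62. The part of RNA from other cells in the keratinocyte values was not tested.

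Ccl11 encodes eotaxin, the chemokine that draws eosinophils through CCR3 (ENSMUSG00000020676, chromosome 11, 82057823 to 82062955, plus strand). It had the narrowest source of the 3 stromal genes, with 417 of 434 UMIs (96.1%) in fibroblast-like cells of the PBS-labelled library at 137 CPM (124 to 151). The next class, skeletal muscle-like cells, had 5.58 CPM from 4 UMIs, a 24.5-fold step. A Ccl11 UMI was found in 41.4% of fibroblast-like cells, or 12.9% after thinning, and in 0.0839% of suprabasal cells. The sitagliptin-labelled library had 7 Ccl11 UMIs in all, 4 of them in 1 fibroblast-like cell.

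A second round of clustering of the cells that are not keratinocytes, added after the first levels were seen, divided the fibroblast-like cells by source. Each of the 3 stromal genes had a different subcluster at its highest level. Subcluster 2, with 286 PBS-labelled cells and the leading genes Pla1a, C3, Cxcl13 and Cd248, had Ccl11 at 194 CPM and 85.3% of its UMIs. Subcluster 8, with 95 cells and the extracellular matrix genes Cilp and Sfrp2 (unnamed by the marker rule, with Timp3 among its leading genes), had Igf1 at 1231 CPM (1128 to 1341) in 84.2% of its cells, against 211 CPM in subcluster 2. Subcluster 20 had Igf1 at 926 CPM (718 to 1176), an interval that overlaps that of subcluster 8. Subcluster 20, with 20 cells and the leading genes Gdf10 and Mgp, had Cxcl12 at 1299 CPM, against 312 in subcluster 2 and 301 in subcluster 8, but 1 cell held 39 of its 94 UMIs and the level was 760.2 CPM with that cell's UMIs set to 0. Blood endothelial-like subcluster 16, with 29 cells, had Cxcl12 at 859 CPM (660 to 1099), or 696 CPM with its own highest cell set to 0. These levels lie above the 298 CPM of the fibroblast-like class. The 29 cells belong to cluster 23, which had 36 PBS-labelled cells and so was not ranked among the classes.

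Igf1 also differed between myeloid subclusters. Subcluster 0, with Cd209f, Lyve1 and Folr2, genes of resident perivascular macrophages, had 235 CPM and an Igf1 UMI in 60.2% of its cells. Subcluster 10, which held 65 PBS-labelled cells of the macrophage-like class, had 90.1 CPM and an Igf1 UMI in 53.4% of its cells. It has the keratinocyte gene Krt6a among its leading genes. Over both libraries Krt14 was 7554 CPM there against 468 in subcluster 0. Median depths of PBS-labelled cells were 9783 and 4245 UMIs. The part of keratinocyte RNA in its Igf1 level was not tested. Subcluster 1, with Lyz1, Ear2 and Retnla, had 14.4 CPM. The second round named it macrophage-like, but its 281 PBS-labelled cells came from myeloid cluster 10, not from the macrophage-like class of the first round. Among follicle cells, subcluster 3 with Lgr5 and Wif1, which held 84 of the 120 PBS-labelled cells of cluster 18, carried Cxcl12 at 195 CPM (166 to 228) and Igf1 at 2.52 CPM from 2 UMIs.

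**Figure D2:**
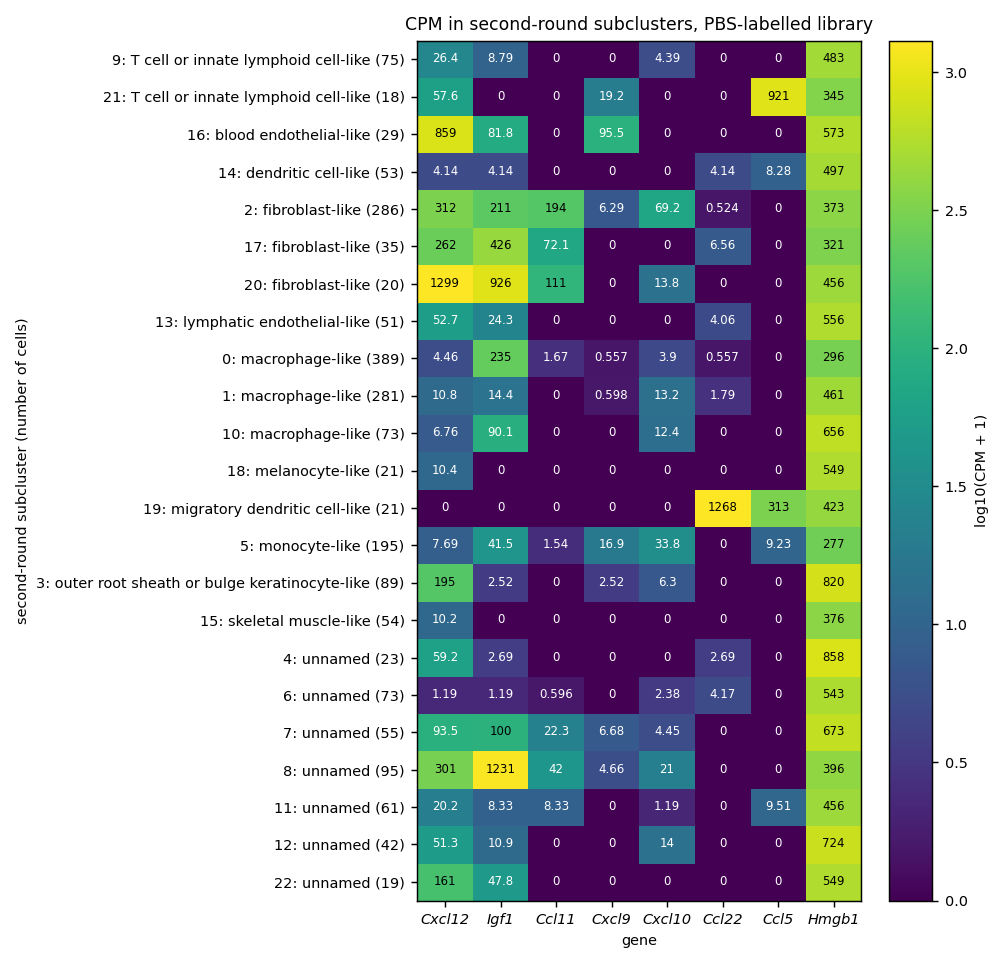
CPM of the Dpp4 substrate genes (columns) in second-round subclusters of the PBS-labelled library (vertical axis, with the number of cells; subcluster 23 with 5 cells is left out), with colour for log10(CPM + 1). Ccl11 is highest in subcluster 2, Igf1 in subcluster 8, Cxcl12 in subcluster 20, Ccl22 in subcluster 19 and Ccl5 in subcluster 21.

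Dpp4 itself, whose protein would act on these ligands, had 197 CPM in PBS-labelled fibroblast-like cells and 24.8 CPM from 4 UMIs in the sitagliptin-labelled ones. By subcluster it had 270.4 CPM in subcluster 2, where Ccl11 is highest, 112 CPM in subcluster 8 and 13.8 CPM from 1 UMI in subcluster 20. Of the 495 PBS-labelled fibroblast-like cells, 250 had a Dpp4 UMI, with a median of 6683 UMIs, and 245 had none, with a median of 3984. Cells with Dpp4 had Ccl11 at 154 CPM against 111 without, Igf1 at 293 against 479 and Cxcl12 at 259 against 359.

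The fibroblast-like cells of the libraries were not alike in makeup, which bears on every stromal value between them. Of the 495 PBS-labelled cells 286 lay in subcluster 2, whereas 49 of the 58 sitagliptin-labelled cells lay in subcluster 7, which held 55 PBS-labelled fibroblast-like cells, is unnamed and has keratinocyte genes such as Krt6a among its leading genes. Over the class, Cxcl12 was 298 CPM in the PBS-labelled library against 86.7 CPM (14 UMIs) in the sitagliptin-labelled one, and Igf1 366 and 55.8 CPM (9 UMIs). Within subcluster 7, Cxcl12 was 93.5 CPM (67.4 to 126) and 73.8 CPM (33.7 to 140.1). The highest PBS-labelled cell held 20 of the 42 Cxcl12 UMIs there. Without that cell's UMIs the PBS-labelled level was 49.0 CPM, below the sitagliptin-labelled one. The difference of the whole class was thus not seen in subcluster 7, and the direction there depended on that cell. Igf1 was 100.2 CPM (73.1 to 134) and 24.6 CPM (5.07 to 71.9) in subcluster 7, from 45 and 3 UMIs. Ccl11 was 22.3 CPM from 10 UMIs and 0 UMIs, where 3 UMIs would be 24.6 CPM.

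Cxcl9 and Cxcl10 encode CXCR3 ligands that interferons induce and that draw activated T cells. They lie close together on the minus strand of chromosome 5, Cxcl9 (ENSMUSG00000029417) at 92321347 to 92328079 and Cxcl10 (ENSMUSG00000034855) at 92346638 to 92348889. Their promoters are shown as description, and a link between motifs and levels was not tested. Each is the 250 bases before the RefSeq start in GRCm38.p6, at chr5:92328080-92328329 for Cxcl9 and chr5:92348890-92349139 for Cxcl10, minus strand, with motif matches in capitals.
Cxcl9: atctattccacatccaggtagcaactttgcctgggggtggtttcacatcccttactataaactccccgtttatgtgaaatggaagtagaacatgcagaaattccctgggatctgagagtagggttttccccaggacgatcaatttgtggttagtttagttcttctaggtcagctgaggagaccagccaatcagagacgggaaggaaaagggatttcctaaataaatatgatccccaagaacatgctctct
Cxcl10: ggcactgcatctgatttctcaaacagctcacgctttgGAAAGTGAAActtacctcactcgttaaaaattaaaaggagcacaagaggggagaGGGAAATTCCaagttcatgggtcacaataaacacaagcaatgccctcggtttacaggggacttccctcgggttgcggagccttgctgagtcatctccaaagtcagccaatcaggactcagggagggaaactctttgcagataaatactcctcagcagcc
Searched on both strands were an interferon-stimulated response element core (GAAANNGAAA), a gamma-activated site (TTCNNNGAA) and a kappaB site (GGGANNTTCC). The first is found in 2.98% of 32851 promoters of the table at this length, the second in 7.02% and the third in 1.21%. The Cxcl10 window holds the response element core 213 to 204 bases before the start and the kappaB site 159 to 150 bases before it, and the Cxcl9 window holds none of the 3 motifs. None was found in the windows of Cxcl12, Igf1, Ccl22 or Hmgb1. For these genes and for Cxcl9 this says only that these exact letters are not there, since other spellings of such sites were not searched.

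Cxcl10 was carried most by fibroblast-like cells. They had 47.3 CPM (39.9 to 55.7; 144 of 383 UMIs) in the PBS-labelled library, with a UMI in 11.7% of cells, or 2.83% after thinning, against 0.671% and 0.168% of suprabasal cells. Most of that came from subcluster 2, at 69.2 CPM (57.9 to 82.0) in 17.5% of its cells, where subcluster 8 had 21.0 CPM. Myeloid cluster 10, with Lyz1, Ccr2 and class II genes, had 16.4 CPM, and upper follicle-like cells had 10.02 CPM from 120 UMIs in 47 cells. In the sitagliptin-labelled library fibroblast-like cells had 37.2 CPM from 6 UMIs, and upper follicle-like cells 6.53 CPM from 92 UMIs in 57 cells.

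Cxcl9 was concentrated in single cells. In the PBS-labelled library 35 cells carried its 137 UMIs, and 10 of them carried 81.0%. An upper follicle-like cell had 34 Cxcl9 UMIs with 17 of Cxcl10, and an outer root sheath or bulge-like cell had 26 with 12 of Cxcl10. The leading level, 28.8 CPM in outer root sheath or bulge-like cells, came from 46 UMIs in 3 cells and was 12.5 CPM with the highest cell set to 0. Upper follicle-like cells had 3.84 CPM from 46 UMIs in 10 cells, and 1.002 CPM without the highest. In the sitagliptin-labelled library the same classes had 0.631 CPM from 5 UMIs and 1.28 CPM from 18 UMIs in 16 cells. Cells with UMIs of both chemokines numbered 10 in the PBS-labelled library, which is 28.6% of Cxcl9 cells and 5.75% of Cxcl10 cells. In the sitagliptin-labelled library 3 cells had both, or 7.89% and 2.5%.

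**Figure D3:**
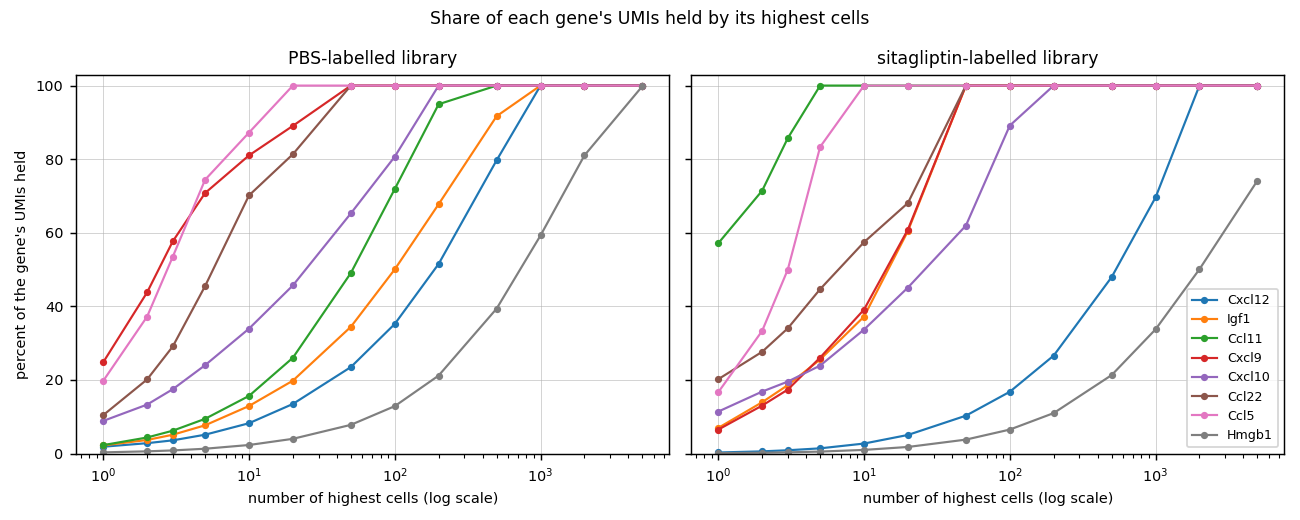
Cumulative share of each gene's UMIs in percent (vertical axis) against the number of its highest cells (horizontal log axis), for the PBS-labelled (left) and sitagliptin-labelled (right) library. In the PBS-labelled library 10 cells hold 87.2% of Ccl5, 81.0% of Cxcl9 and 70.1% of Ccl22 UMIs, but 2.34% of Hmgb1 UMIs.

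Ccl22 encodes a CCR4 ligand made by mature dendritic cells (ENSMUSG00000031779, chromosome 8, 94745590 to 94751699, plus strand). By class its leading level was 18.1 CPM in the skeletal muscle-like cluster, and all 13 UMIs behind it lay in 1 cell, which the second round placed in the migratory dendritic-like subcluster 19. That subcluster, with 21 PBS-labelled cells, had 81 UMIs in 9 cells at 1268 CPM (1007 to 1576), or 60.4% of all Ccl22 UMIs. By the first clustering 14 of its cells were Langerhans-like and 6 in cluster 10. The Langerhans gene Cd207 is among its leading genes, so its cells overlap both of those classes. Its Ccl22 UMIs lay mostly outside the Langerhans-like cells. Among its highest cells, those from cluster 10 held 14, 12, 11, 11 and 6 UMIs and the one from the muscle-like cluster 13. A Langerhans-like cell of the subcluster held 11, with 29 Cd207 UMIs. Subcluster 19 held 7 of the 8 highest cells, and the other was a Langerhans-like cell outside it. Myeloid cluster 10 as a whole had 17.9 CPM (13.6 to 23.0) and Langerhans-like cells 10.9 CPM from 20 UMIs. In the sitagliptin-labelled library subcluster 19 had 4 cells, 1 of which held 19 of the 94 UMIs, and 73.4% of UMIs lay in keratinocyte clusters, against 27.6% in the PBS-labelled library. Over all keratinocyte clusters together Ccl22 was 0.840 CPM against 0.852 CPM in the PBS-labelled library, a ratio of 0.986 (0.652 to 1.51). Unnamed cluster 0, with 24 PBS-labelled and 5881 sitagliptin-labelled cells, held 28 of the 69 sitagliptin-labelled UMIs. In suprabasal cells the ratio was 0.617 (0.355 to 1.09). PBS-labelled and sitagliptin-labelled UMIs were 9 and 2 in basal, 3 and 0 in upper follicle-like, 1 and 2 in outer root sheath or bulge-like and 0 and 3 in sebocyte-like cells.

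Ccl5 encodes a chemokine of cytotoxic and memory T cells that acts on CCR1 among other receptors (ENSMUSG00000035042, chromosome 11, 83525778 to 83530518, minus strand). In the PBS-labelled library T cell or innate lymphoid-like cells had 48 of 86 UMIs in 5 of 99 cells, at 105 CPM (77.2 to 139). All 5 lay in subcluster 21, 18 cells at 921 CPM (679 to 1221), while subcluster 9, 75 cells with the gamma-delta T cell gene Trdc, had 0 UMIs. The migratory dendritic-like subcluster 19 held a further 20 UMIs in 3 cells, at 313 CPM. These subclusters held 68 of the 86 UMIs, and subcluster 11, which has muscle and keratinocyte genes, and monocyte-like subcluster 5 held 8 and 6. In the sitagliptin-labelled library none of 32 T cell or innate lymphoid-like cells had a UMI, where 3 UMIs would be 11.2 CPM. Of these cells 2 lay in subcluster 21, against 17 of 99 in the PBS-labelled library, and in that subcluster 3 UMIs would be 928 CPM, so a difference from the PBS-labelled level was not detectable at this depth. The library's 6 Ccl5 UMIs lay in 6 cells of keratinocyte clusters.

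Hmgb1 (ENSMUSG00000066551, chromosome 5, 149046702 to 149184489, minus strand) was found in every class. The annotation names 14 pseudogenes for it, none of which is listed in the files, so reads shared with copies make its level uncertain. In the PBS-labelled library the level was 1239.6 CPM in basal, 1098 in sebocyte-like, 931 in upper follicle-like, 591 in outer root sheath or bulge-like and 453 in suprabasal keratinocyte-like cells. Fibroblast-like cells had 420.0 CPM and macrophage-like cells 394. Within the basal and upper follicle classes the dividing clusters were higher, with 1635 CPM in basal cluster 8 (Ube2c, Cdk1) against 887 in cluster 3, and 1322 in upper follicle cluster 9 against 631 in cluster 2. Dividing suprabasal cluster 11 (Nusap1, Top2a) had 836 CPM, below sebocyte-like cluster 20 at 1159 CPM. Granular cluster 15 (Lor, Flg) had 232 CPM. In the sitagliptin-labelled library clusters 8 and 3 had 1855 and 952 CPM, clusters 9 and 2 had 1202 and 674 CPM, and cluster 15 had 371 CPM, where suprabasal cluster 7 was lower still at 331 CPM.

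The receptors of these ligands were mapped by class in the same way in the PBS-labelled library. Cxcr4, the signalling receptor of CXCL12, was highest in myeloid cluster 10 at 19.1 CPM. Ackr3, the gene of its scavenging receptor, was highest in fibroblast-like cells, at 165 CPM against 56.9 in lymphatic endothelial-like cells. Among the ranked classes fibroblast-like cells also led for Cxcl12. Igf1r was found in all classes, highest in follicle cluster 18 at 185 CPM and in outer root sheath or bulge-like cells at 125 CPM. Igf1 itself was 2.52 CPM in the Lgr5 subcluster of cluster 18, so ligand and receptor had different leading classes. Insr, the insulin receptor, was highest in macrophage-like cells at 47.7 CPM and Igf2r, which clears IGF2, in fibroblast-like cells at 63.7 CPM.

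Ccr1, a receptor of CCL5, led in myeloid cluster 10 at 95.6 CPM, with 63.8 CPM in macrophage-like cells. Cxcr3, the receptor of CXCL9 and CXCL10, had 48 UMIs and 13.4 CPM in macrophage-like cells, and Ccr3, the eotaxin receptor, 5 UMIs in the library. Ccr4 was found in T cell or innate lymphoid-like cells at 24.0 CPM and in suprabasal keratinocyte-like cells at 19.9 CPM, and at 20.9 CPM in suprabasal cells of the sitagliptin-labelled library. Suprabasal cluster 4, which has Ccr4 among its leading genes, had 28.6 and 32.9 CPM in the libraries, with a UMI in 3.36% and 3.17% of thinned cells, against 0.251% and 0.216% in basal cluster 3.

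The atypical receptors, which bind chemokines without G protein signalling, had different leading classes. Ackr1 had 61.4 CPM in fibroblast-like cells and 477 CPM in blood endothelial-like subcluster 16. Ackr2 had 135 CPM from 38 UMIs in lymphatic endothelial-like cells and 8.82 CPM from 107 UMIs in basal cells. Of the HMGB1 receptors, Tlr4 and Tlr2 led in macrophage-like cells at 64.2 and 44.0 CPM, and Ager had 36 UMIs.

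**Figure D4:**
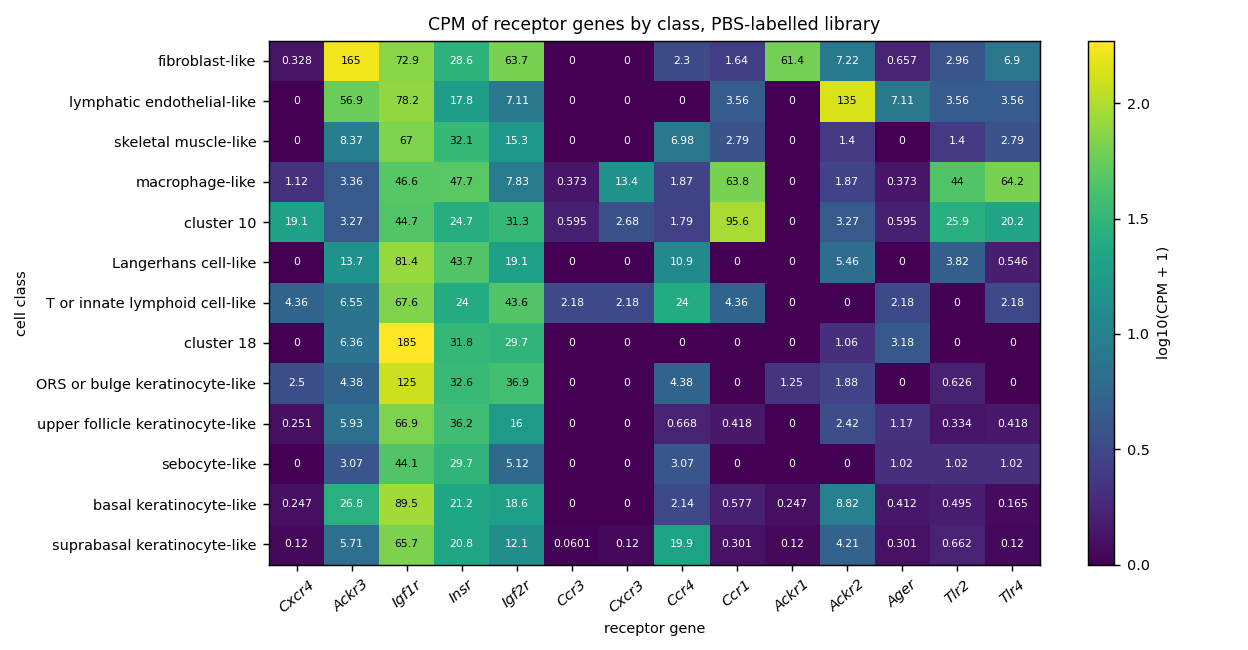
CPM of receptor genes (horizontal axis) by class with at least 50 cells (vertical axis) in the PBS-labelled library, with colour for log10(CPM + 1). Ccr1 is highest in myeloid cluster 10, Ackr3 in fibroblast-like cells, Ackr2 in lymphatic endothelial-like cells and Igf1r in cluster 18.

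Between the libraries only 4 keratinocyte classes had at least 200 cells in both, and 3 to 5 of the 8 genes had at least 20 UMIs in each class. A gene was counted when its levels were at least 1.5-fold apart, with no test. In basal cells 1 of 3 genes was higher in the sitagliptin-labelled library (Cxcl12) and 0 were lower, against 5.13% and 4.65% of all genes measured there. In suprabasal cells 2 of 5 were higher (Cxcl12, Cxcl10) and 2 lower (Igf1, Ccl22), against 7.54% and 4.33%. In upper follicle-like cells 2 of 4 were lower (Cxcl9, Cxcl10) and 0 higher, against 3.92% and 4.25%. In outer root sheath or bulge-like cells 1 of 3 was lower (Cxcl9) and 0 higher, against 6.6% and 10.8%. With so few genes measured, 1 gene moves these shares by 20 percentage points or more.

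Cxcl12 in suprabasal cells was 2.89 CPM in the PBS-labelled library against 5.63 CPM in the sitagliptin-labelled one, a ratio of 1.95 (1.42 to 2.73). Different clusters held most of this class: clusters 4 (565 cells) and 7 (367) in the PBS-labelled library and cluster 1 (2662) in the sitagliptin-labelled one, which held 146 of its 215 UMIs at 14.5 CPM. Within cluster 4 the levels were 1.65 and 2.36 CPM and within cluster 7 1.90 and 2.38 CPM. Within cluster 11 they were 2.05 and 3.59 CPM, from 7 and 29 UMIs, a ratio of 1.75 (0.752 to 4.75). Cluster 15 went the other way, at 11.0 and 0.818 CPM, and all 16 of its PBS-labelled UMIs lay in 1 cell. Without the highest cell of each library the ratio of the class was 2.89, and over the alternatives it ranged from 1.32 to 3.93. In basal cells they were 3.05 and 5.60 CPM, from 37 and 44 UMIs, a ratio of 1.84 (1.16 to 2.92; 1.60 to 3.29 over the alternatives), and both basal clusters were higher in the sitagliptin-labelled library. In the follicle classes that carry most epithelial Cxcl12 the ratios were nearer 1, at 1.17 (1.05 to 1.30) in upper follicle-like and 1.15 (0.939 to 1.43) in outer root sheath or bulge-like cells. The latter was below 1 in 5 alternatives, down to 0.633 at Leiden resolution 2.

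Igf1 in suprabasal cells had 18 UMIs in the PBS-labelled library against 2 in the sitagliptin-labelled one, a ratio of 0.0484 (0.00544 to 0.202). Genes of macrophages and fibroblasts were lower with it. Of 12 genes listed for RNA from other cells, 9 were lower in suprabasal cells and 10 in each of the other 3 classes. The shares of all genes lower were 4.33% in suprabasal, 4.65% in basal, 3.92% in upper follicle-like and 6.6% in outer root sheath or bulge-like cells. Lyz2, a myeloid lysozyme gene, was 21.7 and 0.382 CPM in basal cells, and Col3a1 14.2 and 0.497 CPM in upper follicle-like cells. The summed level of the 12 genes was 2359 to 11748 CPM over the 4 classes in the PBS-labelled library against 3231 to 14269 CPM in the sitagliptin-labelled one. That sum includes Apoe and Sparc, which were not among the lower genes in any of the 4 classes, and Sparc was higher in suprabasal cells. In upper follicle-like cells Col1a2, Col3a1 and Dcn together had 33.4 and 1.42 CPM in the libraries. There C1qa, C1qb and C1qc together had 46.4 and 1.77 CPM. The part of RNA from other cells in the Igf1 values was not tested.

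Cxcl9 in outer root sheath or bulge-like cells had a ratio of 0.0219 (0.00680 to 0.0549), and 0.0202 with the highest cell of each library set to 0, where 3 PBS-labelled cells hold all UMIs. In upper follicle-like cells the ratio was 0.332 (0.181 to 0.584) and became 1.13 (0.503 to 2.62) without the highest cells. The Cxcl10 ratio there was 0.651 (0.491 to 0.861), and 0.810 without them, and in suprabasal cells 1.52 (0.788 to 3.18), and 1.02 without them. The differences of these chemokines in upper follicle-like and suprabasal cells were thus not 1.5-fold once 1 cell per library was set aside.

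The wider interferon response was read from 19 listed genes, among them Ifng and its receptor genes Ifngr1 and Ifngr2, so counts and sums include these. Of the 19 genes, 5 of 12 measured were lower in basal, 4 of 13 in suprabasal, 4 of 13 in upper follicle-like and 5 of 9 in outer root sheath or bulge-like cells, with 0, 0, 2 and 1 higher. The higher genes were Ifngr1 and Ifit1 in upper follicle-like and Ifngr1 in outer root sheath or bulge-like cells. Of all genes measured in these classes, 4.65%, 4.33%, 3.92% and 6.6% were lower and 5.13%, 7.54%, 4.25% and 10.8% higher. Their median log2 ratios of CPM + 1 were -0.16, -0.08, -0.40 and -0.66, where the medians of all genes were 0.01, 0.04, -0.01 and 0.01. Gbp2, a guanylate-binding protein gene, was 11.0 and 4.61 CPM in upper follicle-like cells, and Isg15, a ubiquitin-like interferon-induced gene, 11.9 and 2.90 CPM in outer root sheath or bulge-like cells. The summed level of the list was 226 and 234 CPM in basal, 168 and 183 in suprabasal, 188 and 190.2 in upper follicle-like and 163 and 154 in outer root sheath or bulge-like cells, so the sum was not lower in the sitagliptin-labelled library in 3 of the 4 classes. Genes of the dissociation response were lower too, with 3, 6, 3 and 10 of 11 lower in the 4 classes, against the same shares of all genes. Their part in the interferon values was not tested.

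**Figure D5:**
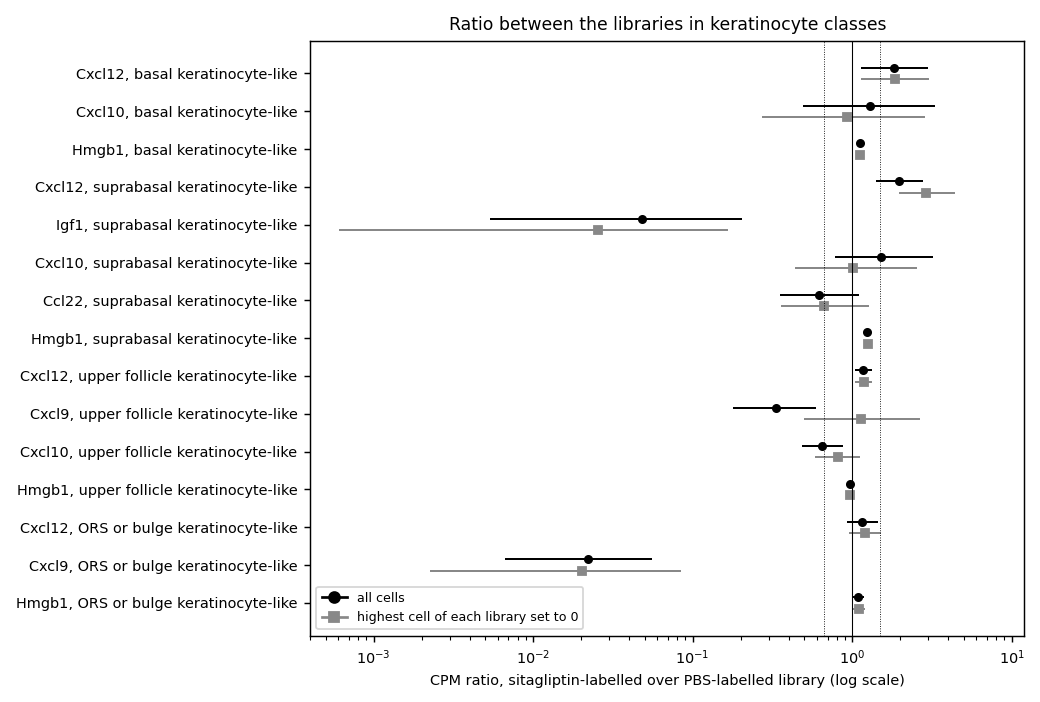
Ratio of CPM in the sitagliptin-labelled over the PBS-labelled library (horizontal log axis) for each measured Dpp4 substrate gene in the keratinocyte classes with at least 200 cells in both, with exact binomial intervals for counting error only; grey squares have the highest cell of each library set to 0, and dotted lines mark 1.5-fold. Cxcl9 in upper follicle-like cells moves from 0.332 to 1.13, and Hmgb1 lies between 0.969 and 1.24.

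Hmgb1 was within 1.5-fold in all 4 classes, with ratios of 1.12 (1.09 to 1.15) in basal, 1.24 in suprabasal, 0.969 in upper follicle-like and 1.08 in outer root sheath or bulge-like cells. By cluster the ratio was 1.60 (1.42 to 1.80) in granular cluster 15. Ccl22 in suprabasal cells was 1.44 CPM from 24 UMIs and 0.891 CPM from 34 UMIs, a ratio of 0.617 (0.355 to 1.09), with an interval that includes 1.

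Receptors were counted in the same classes, where single genes decide the shares. Of those measured, 0 of 6 in basal cells were 1.5-fold apart, 1 of 6 in suprabasal cells (Ackr3, higher at 5.71 and 10.2 CPM), 2 of 7 in upper follicle-like cells (Ager lower and Ccr4 higher) and 1 of 5 in outer root sheath or bulge-like cells (Ackr3, higher). With 0 or 1 receptor in each direction, these counts cannot be set apart from the shares of all genes given above. In the IGF axis, whose binding proteins hold IGF1 outside cells, 3 of 9 measured genes were lower in basal cells (Igfbp5, Igfbp6 and Igfals) and 0 higher, against 4.65% and 5.13% of all genes. In suprabasal cells 1 of 11 was lower (Igfbp6) and 3 higher (Igfbp4, Irs1 and Pappa), against 4.33% and 7.54%. In upper follicle-like cells 2 of 11 were lower (Igfbp3 and Igfbp6) and 1 higher (Stc2), against 3.92% and 4.25%, and in outer root sheath or bulge-like cells 2 of 10 were lower and 0 higher, against 6.6% and 10.8%. Igfbp6 was 3.22 and 1.02 CPM in basal cells and 2941 CPM in PBS-labelled fibroblast-like cells, and the part of fibroblast RNA in its keratinocyte values was not tested. Igfbp3, a binding protein that prolongs the life of IGF1 in tissue, led in basal cells at 354 CPM.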

How the data were processed

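Per the submitters' processing notes, Cell Ranger 3.1.0 and mm10 were used. The authors deposited raw UMI counts for 31053 genes in both libraries, per the file headers, and the sources used here do not give the rule by which barcodes became cells. Groups follow the treatment labels.

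Kept barcodes had 500 or more genes, 1000 or more UMIs and no more than 10% mitochondrial UMIs, a limit exceeded by 39.9% of barcodes in the PBS-labelled library against 16.8% in the sitagliptin-labelled one. Both libraries were clustered together with scanpy 1.11.5 (counts scaled to 10000 per cell and logged, 2000 variable genes without the 8 genes, their receptors and Dpp4, 30 principal components, 15 neighbours, Leiden resolution 1, seed 1), giving 26 clusters named from marker lists. The 2635 cells of the clusters that are not keratinocytes were clustered again into 24 subclusters, a step added after the first levels were seen. In that round the first melanocyte-like cluster held mostly follicle cells, so it is called cluster 18. The doublet caller Scrublet marked 2 of 5932 and 0 of 18380 cells, too few to have worked, so no doublets were removed except in an alternative.

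Sums of UMIs per class and library are given as CPM. Levels are compared over classes of at least 50 cells, and libraries over classes of at least 200 cells in both and genes with at least 20 UMIs over both, by the ratio of CPM with the exact conditional binomial interval. For a count of 0 the level of 3 UMIs is given as its limit. The ratio step was tested on simulated data. The named genes are the 8 genes, Dpp4, 15 receptors, listed genes that are highest or lowest in a class or past 1.5-fold between libraries, and the 3 genes most like each. Some listed genes are not reported here. The 8 genes and all lists were chosen with earlier results of these data known, and the clusters named are those that hold them. Alternatives were other cell filters, clusterings, scalings, thinned cells, other thresholds and leaving out each gene's highest cell, the last added after seeing the data. Promoters come from RefSeq on GRCm38.p6, which matched 6 of 8 genes; Ccl11 and Ccl5 have no entry. Gene positions come from GENCODE vM21.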

Additional observations from a re-analysis of the deposited data

How the results depend on the processing

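No paired analysis was possible because each treatment had 1 library. The number of genes whose leading class was at least 2-fold above the next was 4 and ranged from 3 to 5 over 10 alternatives. Igf1, Ccl11 and Cxcl10 kept fibroblast-like cells as their leading class in all 10, Cxcl12 and Hmgb1 kept theirs in 9, Ccl5 in 8, Cxcl9 in 7 and Ccl22 in 3. The counts between libraries depended on the settings, and the cause was not tested. In suprabasal cells the 2 lower genes became 1 with at least 1000 genes and 2000 UMIs, 1 at a 5% mitochondrial limit, 1 at a fold of 2, 1 without the highest cells, 0 at resolution 0.5 and 0 after thinning to 1000 UMIs. The 2 higher genes there became 1 with the stricter cell filter, 1 at resolution 0.5, 1 with libraries scaled separately, 1 with totals without mitochondrial, ribosomal and haemoglobin genes, 1 without the highest cells and 0 at a fold of 2. In upper follicle-like cells the 2 lower genes became 1 with separate scaling, 1 without the 8% highest doublet scores, 1 at a fold of 2, and 0 with the mean of single cells, 0 after thinning and 0 without the highest cells. In outer root sheath or bulge-like cells the 1 lower gene became 2 at resolution 2, 0 after thinning and 4 with no minimum of UMIs. In basal cells the 1 higher gene became 2 without the highest doublet scores, 0 after thinning and 0 at a fold of 2, and the 0 lower genes became 2 with no minimum of UMIs. Ratios near 1 turned direction for Cxcl12 in upper follicle-like cells at the 5% limit (0.955) and in all keratinocyte clusters with separate scaling (0.938). The Cxcl12 ratio in outer root sheath or bulge-like cells, 1.15, was 0.956 with the stricter cell filter, 0.749 at resolution 0.5, 0.633 at resolution 2, 0.684 with separate scaling and 0.684 without the highest doublet scores. The Hmgb1 ratio turned in outer root sheath or bulge-like cells at resolution 0.5 (0.962), in upper follicle-like cells with the mean of single cells (1.01) and thinned (1.05), and in all keratinocyte clusters with separate scaling (1.16), the mean of single cells (1.002) and thinned (1.01). Depth limits Ccl5, Ccl11 and Igf1 in the sitagliptin-labelled library, with 6, 7 and 43 UMIs.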

Other observations

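Genes whose level followed each Dpp4 substrate gene over the 13 classes of at least 50 cells in the PBS-labelled library were ranked by Pearson correlation of log2(CPM + 1), as a description over classes that share 1 library and differ in depth. Ccl11 was most like Osr2 (0.997), Cxcl13 (0.994) and Fgf7 (0.994), and Igf1 most like Adam33 (0.976), Vcam1 (0.975) and B3galnt1 (0.964). Cxcl12 was most like Ltbp1 (0.961), Tcf7l1 (0.946) and Csnk1e (0.929). Ccl5 was most like Klrb1b (0.954), Cd7 (0.949) and Ptprcap (0.949), and Hmgb1 most like Rad21 (0.936), Hmgb3 (0.921) and Smc1a (0.916), with Rad21 and Smc1a encoding cohesin subunits. Likeness was weaker for Cxcl9, Cxcl10 and Ccl22, whose first genes were Cbx8 (0.868), Trio (0.885) and Apol7c (0.828).

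Among 495 PBS-labelled fibroblast-like cells thinned to 1000 UMIs, a Cxcl12 UMI was found in 37.5% of cells with Ccl11 and 23.7% of those without, and an Igf1 UMI in 28.1% and 25.8%. Of cells with Dpp4, 18.8% had Cxcl12, against 26.7% of those without.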
